A study of Mus musculus with 13 samples.

Results

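The genes that start and carry out DNA replication were followed through the mouse intestinal crypt and villus and into the hair follicle. The set holds 48 genes chosen by name for their place at the origin or the fork, with earlier results of these data known. Of these, 46 were measured by a probe set that names only that gene, among 17097 genes measured in this way. Orc3 is named only together with Akirin2, on 5 probe sets, and Chaf1a has no probe set in the table of names used here. Neither was tested. The 46 genes fall into 7 roles: 5 of origin recognition, 9 of licensing, 8 of helicase activation, 9 polymerase and primase subunits, 10 of the sliding clamp, its loader, single-strand binding protein RPA and the flap nuclease, 4 of nucleotide supply, and 1 chromatin assembly subunit, Chaf1b.

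RNA was hybridised to 13 Affymetrix HT MG-430 PM arrays, single-colour arrays in which short probes are read together as 1 value per probe set. All mice were Lgr5-EGFP-ires-CreERT2 knock-ins on a C57BL/6 background, in which the Lgr5 promoter drives GFP and a Cre that needs tamoxifen. No treatment is named for these arrays, and the age of the mice is not given in the labels. GFPbright (4 arrays) and GFPdim (3 arrays) are intestinal epithelial cells sorted by their GFP, and villus (3 arrays) is epithelium of the villi. Hair follicle (3 arrays) is skin cells whose titles also carry the word GFPdim. The methods list them as Lgr5_Low cells of the hair bulge. Each array came from a pool of 3 mice. Replicates 1 to 3 of GFPbright and GFPdim share a code in their titles, taken as the sort, and hair follicle replicate 2 has the code of replicate 2 of both crypt groups. A label field for the Lgr5 level contradicts the title of 3 of the crypt arrays and reads high for the 3 hair follicle arrays, so groups were taken from titles and cell types. The methods name FACS for the RNA of every group, but give no gate for villus cells.

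Marker genes followed the titles. The 5 stem cell markers summed to an intensity of 7318 to 9582 in GFPbright, 2637 to 3605 in GFPdim, 63.7 to 136.6 in villus and 696.7 to 920.2 in hair follicle. Hair follicle arrays had high keratinocyte markers, with a sum of 22556 to 28242 against 1175 to 1366 in GFPbright, while enterocyte and Paneth markers summed to at most 39.2 and 18.5. Median intensities of the 13 arrays were 7.8 to 8.7. As a level without specific signal served the 95th percentile of 84 probe sets for odour, pheromone and taste receptors, an intensity of 7.9, called the receptor level here. All 46 genes were above it in the means of GFPbright, GFPdim and hair follicle, and 40 of 46 in villus. Where a group mean was at or below it, a fold is given as a lower bound against that level.

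Replication begins at origins marked by the origin recognition complex, ORC. In the licensing step Cdc6 and Cdt1 load the ring-shaped Mcm2-7 helicase there, and geminin, the product of Gmnn, holds Cdt1 back until the next cycle. The kinases Cdc7, with its partner Dbf4, and the cyclin-dependent kinases then turn the ring into an active helicase with Cdc45 and the GINS complex. At the fork, primase and DNA polymerase alpha lay down primers, polymerases delta and epsilon extend them, and PCNA, loaded by replication factor C, keeps them on the template. In the intestine, cells divide in the crypt and leave the cycle before they reach the villus. How often the sorted hair follicle cells divide was not measured.

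The promoters of these genes were read because E2F factors, the switch for S phase genes, bind a short GC-rich element. Of the 46 measured genes, 38 are in a RefSeq promoter table (GRCm38.p6), which gives 250 bases before and 50 bases after the start of transcription. An E2F-like element, here TTTCCCGC, TTTGGCGC, TTTGCCGC or TTTCGCGC on either strand, lay in 13 of the 38, or 34.2%. The share was 2.60% among all 27025 genes with a promoter there, and 3.79% among the 13605 of them that are also measured on the array. By role it was found in 6 of 7 licensing genes, 4 of 7 polymerase and primase genes, 1 of 5 ORC genes, 1 of 5 helicase activators, 1 of 9 clamp, loader, RPA and nuclease genes and 0 of 4 nucleotide genes. The 13 genes are Orc1, Cdc6, Cdt1, Mcm3, Mcm5, Mcm6, Mcm7, Gins3, Pola1, Pold1, Pold3, Pole2 and Rfc3. The letters CCAAT, another common promoter element, were in 23 of 38 or 60.5%, against 41.1% of all genes of the table. A match is a description of the letters and no evidence that a factor was bound.

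Below are 4 promoters with an E2F-like element and, for contrast, that of Rrm2, which has none of the letters searched in this window but 1 CCAAT. They were shown because Mcm3, Mcm5 and Mcm6 encode parts of 1 helicase ring, Pola1 is the catalytic subunit of the polymerase that primes synthesis, and Rrm2 was close to GFPbright in hair follicle on 1 of its 2 probe sets. The E2F-like element is in capitals, overlapping matches as 1 run. Mcm3 lies at chr1:20820263-20820562 on the minus strand with 2 matches, and Mcm5 at chr8:75109259-75109558 on the plus strand with 2 overlapping matches. Mcm6 lies at chr1:128359656-128359955 on the minus strand with 3 matches, and Pola1 at chrX:93632106-93632405 on the minus strand with 1. Rrm2 lies at chr12:24708004-24708303 on the plus strand. Each is written along the gene, 5′ to 3′, with the start of transcription after the first 250 bases.
Mcm3: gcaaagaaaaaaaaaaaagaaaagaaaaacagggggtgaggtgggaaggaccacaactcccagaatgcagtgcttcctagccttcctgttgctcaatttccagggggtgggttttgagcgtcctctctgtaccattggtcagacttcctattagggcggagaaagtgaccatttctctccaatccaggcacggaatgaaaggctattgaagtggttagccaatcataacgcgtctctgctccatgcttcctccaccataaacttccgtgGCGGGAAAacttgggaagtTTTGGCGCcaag
Mcm5: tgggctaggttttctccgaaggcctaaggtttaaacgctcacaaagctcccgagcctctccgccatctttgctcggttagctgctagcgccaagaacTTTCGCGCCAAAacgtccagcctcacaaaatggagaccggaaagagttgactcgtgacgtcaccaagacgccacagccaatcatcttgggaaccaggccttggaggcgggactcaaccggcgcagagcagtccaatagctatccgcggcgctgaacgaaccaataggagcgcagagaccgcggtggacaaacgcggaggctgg
Mcm6: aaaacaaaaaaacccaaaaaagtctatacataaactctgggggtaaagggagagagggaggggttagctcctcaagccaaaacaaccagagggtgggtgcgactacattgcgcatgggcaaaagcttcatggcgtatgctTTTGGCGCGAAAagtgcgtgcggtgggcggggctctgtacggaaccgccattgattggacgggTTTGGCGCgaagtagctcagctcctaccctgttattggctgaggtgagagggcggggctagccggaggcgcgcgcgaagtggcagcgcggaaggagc
Pola1: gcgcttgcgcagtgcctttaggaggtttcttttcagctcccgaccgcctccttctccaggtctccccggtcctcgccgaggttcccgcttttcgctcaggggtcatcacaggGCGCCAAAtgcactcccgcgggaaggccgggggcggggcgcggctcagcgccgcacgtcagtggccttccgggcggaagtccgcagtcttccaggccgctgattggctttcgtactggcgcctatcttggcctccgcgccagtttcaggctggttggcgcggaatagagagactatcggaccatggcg
Rrm2: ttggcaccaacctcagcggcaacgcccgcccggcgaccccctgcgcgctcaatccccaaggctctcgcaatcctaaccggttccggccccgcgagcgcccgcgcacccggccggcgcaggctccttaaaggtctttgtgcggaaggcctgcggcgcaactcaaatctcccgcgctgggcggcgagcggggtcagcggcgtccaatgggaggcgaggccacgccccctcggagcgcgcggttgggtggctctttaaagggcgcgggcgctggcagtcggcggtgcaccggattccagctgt

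In both Mcm5 and the upstream site of Mcm6 a pair of matches on opposite strands overlapped, and both matches of Mcm3 lay after the start. The median villus minus GFPbright difference was -3.79 on the log2 scale for the 13 genes with an element and -3.13 for the 25 without, with wide and overlapping ranges of -5.01 to -1.32 and -4.70 to -0.70 when genes below the receptor level in villus are set at their bound, which moved neither median. In hair follicle minus GFPbright the medians were -2.37 and -2.19. These are descriptions, with no test.

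The first comparison asked how replication genes differ between the stem cells and the villus. All 46 genes fell in villus against GFPbright, with a median log2 difference of -3.71, and none rose. Over all 17097 genes 26.3% were lower and 22.6% higher in this comparison (adjusted p under 0.05 in limma), with a median difference of 0.02. In each of the 46 genes every villus array was below every GFPbright array, as was so for 28.1% of all genes. Most of the difference lay between GFPdim and villus, where 44 of the 46 fell, with a median of -2.79 (-2.70 with 6 genes at their bound). Of all genes 21.3% were lower and 20.8% higher there. Orc4 (adjusted p = 0.0688) and Gmnn (adjusted p = 0.144) did not pass, although in both every villus array was below every GFPdim array. Gmnn was lower with only villus and GFPdim in the limma fit (adjusted p = 0.00163), and Orc4 after quantile normalization (adjusted p = 0.04). In bulk RNA, fewer cells that replicate and less RNA of a gene per cell cannot be told apart. Summed cycling markers, among them Mki67 and Top2a, 8 of 9 lower in villus, went with the genes at 4873 to 5819 in GFPbright, 3053 to 4120 in GFPdim and 154.1 to 209.5 in villus. Villus also held T lymphocyte markers, all 6 of 6 higher, with a sum of 1677 to 2407 against 31.4 to 44.9 on all other arrays, while enterocyte markers were 6 of 6 higher (51105 to 52669 against 2184 to 3303 in GFPbright). Handling and stress genes were 7 of 8 lower than in GFPbright (2924 to 3914 against 8451 to 15435) and 8 of 8 lower than in GFPdim. The part of these markers in the result was not tested.

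**Figure D1:**
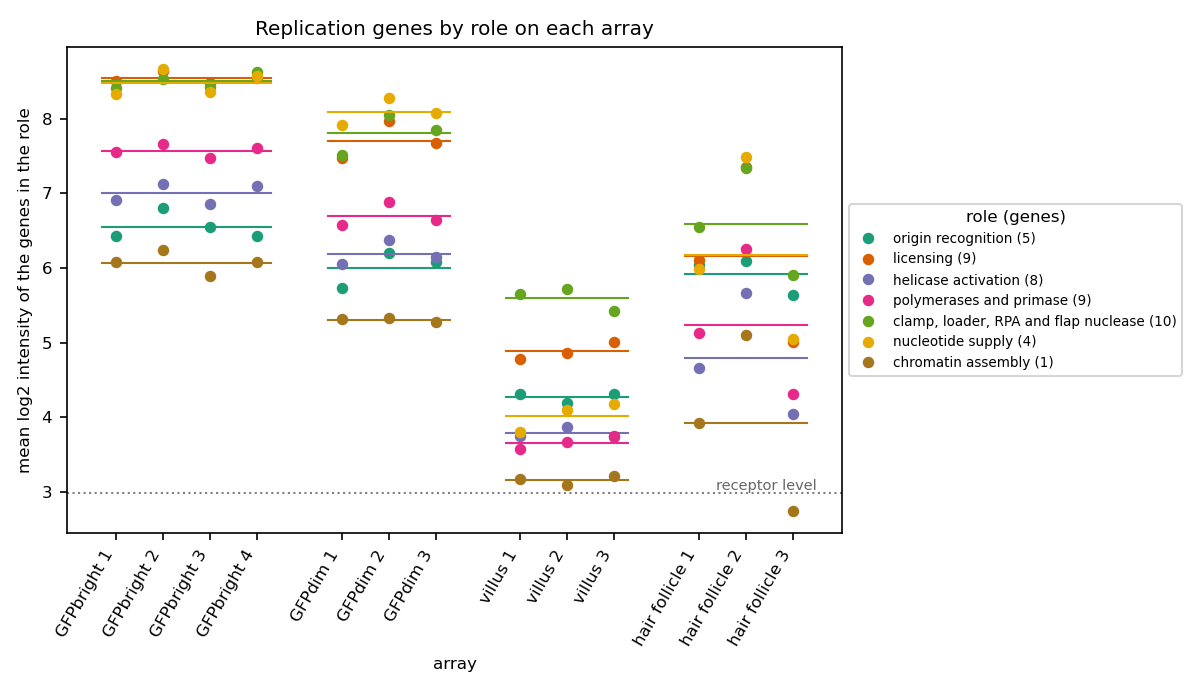
Mean log2 intensity of the genes of each role (points, 1 per array; short lines, group means) for the 13 arrays, with the receptor level as a dotted line. The means of the 46 genes were 7.71 to 7.91 in GFPbright, 6.86 to 7.27 in GFPdim, 4.38 to 4.46 in villus and 4.92 to 6.67 in hair follicle, where the 3 arrays stand apart.

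On the brightest probe sets, genes of nucleotide supply had the largest median log2 difference in villus, -4.48. Their range was also the closest there, from -4.59 to -4.27 over the 4 genes. Tk1, thymidine kinase of the salvage pathway, had intensities of 310.4, 332.0, 276.1 and 368.7 in GFPbright, 241.7, 284.4 and 231.8 in GFPdim, and 10.5, 13.2 and 16.9 in villus. It was 24.1-fold lower in villus than in GFPbright (log2 difference -4.59, SE 0.58, adjusted p = 9.81e-06). Rrm1, the large subunit of ribonucleotide reductase, read 524.6, 579.7, 505.1 and 522.4 in GFPbright, 272.5, 339.6 and 296.5 in GFPdim, and 22.7, 33.9 and 27.4 in villus, or 19.3-fold lower. Tyms, thymidylate synthase, was 23.4-fold lower on the brightest of its 5 probe sets. Rrm2, the small subunit, was 21.3-fold lower on its brighter probe set and at a log2 difference of -3.33 on its second one. GFPbright and villus arrays did not overlap in any of the 4 genes.

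The polymerase and primase subunits came next, with a median of -4.02 over 9 genes, but their range was wide. Pola1, the catalytic subunit of polymerase alpha, read 226.5, 277.1, 262.1 and 252.3 in GFPbright, 60.6, 158.6 and 126.8 in GFPdim, and 5.4, 6.1 and 7.5 in villus. Since all its villus arrays were below the receptor level, it was at least 32.1-fold lower there (adjusted p = 1.36e-07). Pole, the catalytic subunit of polymerase epsilon, was also below that level in villus and at least 22.4-fold lower. Prim1, the catalytic primase subunit, was 26.0-fold lower, and Pold2 25.4-fold. The smallest difference was that of Pold3. Pold3, a small subunit of polymerase delta, read 149.3, 143.1, 136.0 and 140.3 in GFPbright, 64.1, 93.7 and 87.7 in GFPdim, and 39.5, 46.4 and 35.5 in villus, which is 3.53-fold lower. Pola2 was 4.41-fold lower, against the bound of 32.1 for Pola1, with which it forms a complex.

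Licensing genes fell with a median of -3.79. The 6 helicase subunits Mcm2 to Mcm7 ranged from 9.90-fold lower for Mcm2 to at least 27.2-fold lower for Mcm5. Mcm5 read 229.6, 228.8, 177.8 and 227.3 in GFPbright, 73.3, 133.1 and 118.4 in GFPdim, and 5.7, 7.8 and 7.9 in villus. Mcm3 was at least 18.8-fold lower, Mcm4 19.8-fold, Mcm7 22.8-fold and Mcm6 13.7-fold. The loading factors Cdc6 and Cdt1 were 13.8-fold and 5.68-fold lower. Gmnn, the inhibitor of loading, had the smallest difference of the role. It read 309.1, 351.2, 328.6 and 326.8 in GFPbright, 208.0, 272.0 and 235.1 in GFPdim, and 139.0, 124.7 and 129.7 in villus, or 2.51-fold lower (log2 difference -1.33, SE 0.41, adjusted p = 0.015).

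Helicase activators fell with a median of -3.50, or -3.44 with Cdc7 at its bound, and split by gene. Cdc7, the kinase that fires origins, read 96.1, 155.1, 102.7 and 129.2 in GFPbright, 41.1, 74.1 and 47.3 in GFPdim, and 4.2, 6.5 and 5.3 in villus, at least 15.01-fold lower. Its activator Dbf4 was 17.5-fold lower. The 4 GINS subunits, which form 1 complex, did not move by like amounts: Gins1 was 18.3-fold and Gins2 16.3-fold lower, whereas Gins4 was 3.12-fold and Gins3 3.10-fold lower. Gins3 read 40.5, 52.9, 36.1 and 57.0 in GFPbright, 21.4, 32.3 and 26.9 in GFPdim, and 11.7, 14.7 and 18.8 in villus. Cdc45 was 7.79-fold and Mcm10, another factor that helps activate the helicase, 6.24-fold lower.

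The clamp, its loader, RPA and the flap nuclease Fen1 had a median of -2.63. Rfc4, a loader subunit, read 278.6, 303.3, 325.2 and 342.7 in GFPbright, 150.3, 223.7 and 168.3 in GFPdim, and 13.9, 17.9 and 11.4 in villus, or 22.0-fold lower. Rfc2, another subunit of the same loader, read 401.4, 397.9, 336.5 and 422.4, then 185.9, 228.4 and 220.8, and then 87.3, 97.5 and 94.0, or 4.18-fold lower. Fen1, which trims Okazaki fragments, was 16.02-fold lower. Rpa1, Rpa2 and Rpa3 were 7.01, 8.74 and 6.503-fold lower. Pcna was still at an intensity of 513.1, 538.0 and 580.5 in villus, from 2792.5, 2987.1, 2986.1 and 3215.2 in GFPbright, and was 5.51-fold lower.

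ORC genes had the smallest median, -2.27, and the widest spread for their number. Orc6 read 177.2, 250, 209.4 and 199.3 in GFPbright, 73.1, 185.0 and 145.3 in GFPdim, and 9.8, 10.9 and 8.3 in villus, or 21.6-fold lower (adjusted p = 4.56e-09). Orc4 read 107.8, 151.9, 126.0 and 109.7, then 90.7, 115.0 and 95.8, and then 83.2, 77.6 and 66.5, or 1.63-fold lower (log2 difference -0.70, SE 0.16, adjusted p = 0.0017). On the other 3 probe sets of Orc4 the difference was -0.11, -0.04 and -0.31 and passed no test, so its call rests on the brightest probe set, and it was lost with the mean of a gene's probe sets (-0.29, adjusted p = 0.068). Orc2 and Orc5 were 6.14-fold and 4.83-fold lower, and Orc1, whose villus mean was below the receptor level, at least 2.50-fold. On the 5 probe sets shared by Akirin2 and Orc3 the brightest read 351.0 to 405.7 in GFPbright and 310.6 to 331.6 in villus, and which of the 2 genes gave the signal cannot be told apart. Chaf1b, a subunit of the chaperone that puts histones on new DNA, read 67.9, 75.5, 59.1 and 67.6 in GFPbright, 39.8, 40.2 and 38.6 in GFPdim, and 9.0, 8.5 and 9.3 in villus, or 7.54-fold lower.

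**Figure D2:**
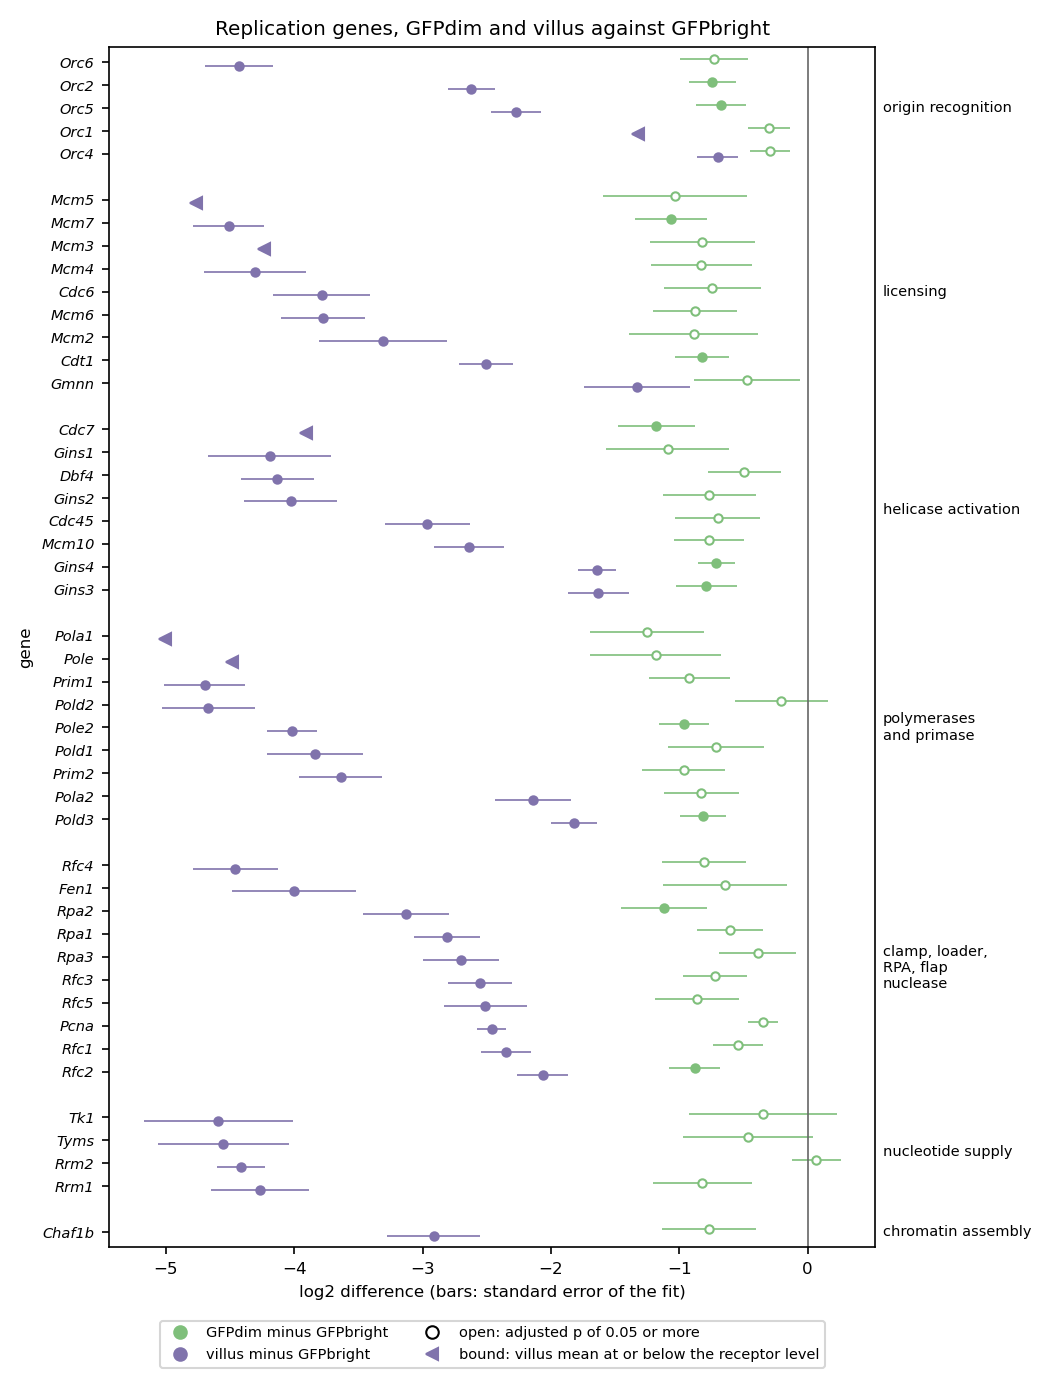
Log2 difference from GFPbright of each of the 46 genes, in GFPdim (light green) and villus (purple), by role; bars are the standard error of the fit and open points did not pass an adjusted p of 0.05. Triangles stand for the 6 genes whose villus mean was at or below the receptor level, drawn at their bound. All villus points lie between -5.01 and -0.70, and all GFPdim points but that of Rrm2 (0.07) are below 0.

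The second comparison, of GFPdim against GFPbright, asked whether the genes already differ between the sorted crypt populations. The difference was below 0 in 45 of the 46 genes, with a median of -0.77 on the log2 scale against -0.04 over all genes, and 11 genes passed the test as lower and none as higher, where 10.4% of all genes were lower and 6.32% higher. In 39 of the 46 every GFPdim array was below every GFPbright array, which held for 17.2% of all genes. The 7 genes whose arrays overlapped were Orc4, Orc6, Pold2, Rpa3, Rrm2, Tyms and Tk1. The 11 genes that passed were Orc2, Orc5, Cdt1, Mcm7, Gins3, Gins4, Cdc7, Pold3, Pole2, Rfc2 and Rpa2. Within the 3 sorts that gave an array of each group, the median of the 46 differences was -0.89, -0.65 and -0.64, and 45 of 46 were below 0 in each sort.

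The smallest adjusted p was that of Pole2, the second subunit of polymerase epsilon, with 127.9, 154.1, 139.5 and 133.5 in GFPbright against 57.6, 87.3 and 71.1 in GFPdim (1.95-fold lower, log2 difference -0.96, SE 0.20, adjusted p = 0.00393). Gins4 read 166.9, 144.4, 148.7 and 185.2 against 102.2, 94.0 and 97.9 (1.64-fold lower, adjusted p = 0.00396). Orc2 read 78.9, 81.0, 67.2 and 58.8 against 38.4, 44.8 and 44.4 (1.67-fold lower, adjusted p = 0.0122). In none of these did the groups overlap. Cdt1 read 1432.1, 1454.9, 1388.9 and 1324.8 against 773.2, 819.3 and 782.6 (1.77-fold lower, adjusted p = 0.0149). Mcm7 read 596.4, 521.9, 527.7 and 605.9 against 200.2, 345.9 and 281.6 (2.09-fold lower, adjusted p = 0.0183). Pold3, Rfc2 and Cdc7, whose intensities stand above, were 1.76-fold (adjusted p = 0.00695), 1.84-fold (adjusted p = 0.00708) and 2.26-fold lower (adjusted p = 0.0159). With the sort as a block 9 genes were called: Orc6 entered (log2 difference -0.75, adjusted p = 0.0393), and Mcm7 (adjusted p = 0.0602), Gins3 (adjusted p = 0.082) and Rpa2 (adjusted p = 0.0839) dropped out. In that fit GFPbright replicate 4, alone in its sort, does not enter the difference. Leaving out this array without a block also gave 9 calls, and Gins3 (adjusted p = 0.0986) and Rpa2 (adjusted p = 0.078) were again not called.

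Among the 4 genes of nucleotide supply none was called, and their median difference was -0.41, with Rrm1 at -0.82. With only GFPbright and GFPdim in the limma fit Rrm1 was lower (adjusted p = 0.00186), while Rrm2, Tyms and Tk1 were not called. Rrm2 read 135.9, 211.1, 181.9 and 178.8 in GFPbright and 133.7, 206.3 and 223.4 in GFPdim, and its second probe set was at 0.24 on the log2 scale (adjusted p = 0.458). Pold2 read 414.6, 382.8, 399.2 and 501.1 against 446.6, 348.9 and 316.0, a difference of -0.20 with an SE of 0.36. Whether these genes differ from the rest of the set was not tested. GFPdim arrays also had higher markers of other epithelial cell types, with goblet markers (5 of 5 higher, sum 19359 to 22950 against 1418 to 2558), enteroendocrine markers (6 of 6, 4270 to 5359 against 147.9 to 285.7), enterocyte markers (6 of 6, 7652 to 10580 against 2184 to 3303) and Paneth markers (2 of 3, 5025 to 9240 against 711.4 to 1438). Their part in the lower replication genes was not tested.

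The count of 11 depended on how the spread was estimated. The test pooled it over the 4 groups, and the median SD of the 46 genes on the log2 scale was 0.93 among hair follicle arrays but 0.13, 0.22 and 0.24 in GFPbright, GFPdim and villus. With only GFPbright and GFPdim in the fit, 37 genes were lower and none higher. Over all genes that fit called 2972, of which 35.9% were higher, against 2853 called in the main fit. Without GFPdim replicate 1, whose upper quartile of intensities was 37.6 against 40.6 to 52.1 on the other 12 arrays, 5 genes were called, and without GFPdim replicate 3, 7. The share of calls over all genes that were higher was 37.9% as deposited, but 51.2% after quantile normalization, 55.5% after arrays were shifted to the same median and 53.2% without GFPdim replicate 1.

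The third comparison set the hair follicle against GFPbright cells. Of the 46 genes 42 were lower, none was higher, and the median difference was -2.19. Over all genes 29.1% were lower and 19.4% higher, and their median was -0.06. The test pooled the spread over the 4 groups, while the median SD of the 46 genes was 0.93 in hair follicle and 0.13 in GFPbright. The SE and adjusted p of every comparison in the main fit rest on this pooled spread, also of those without hair follicle arrays. With only these 2 groups in the fit 42 were lower, and by the methods' t-test with Benjamini-Hochberg adjustment 37. In 42 genes every hair follicle array was below every GFPbright array, as for 31.1% of all genes. The arrays overlapped in Orc4, Orc6, Rpa1 and Rrm2, and the 4 genes not called were Orc1, Orc4, Orc6 and Rrm2. By role, nucleotide supply had a median of -2.67, the polymerases -2.54, licensing -2.44, the clamp and its partners -1.90, helicase activation -1.87 and ORC -0.38. Tk1 had the largest difference (-4.03), followed by Mcm10 (-3.48), Gmnn (-3.34), Fen1 (-3.21), Gins1 (-3.17) and Tyms (-3.16), all named after their values were seen. Handling and stress genes, 8 of 8 higher with a sum of 36822 to 47797 against 8451 to 15435 in GFPbright, moved with this comparison, and their part was not tested.

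Some genes read close to GFPbright in the hair follicle, and are named because of those values. Rrm2 read 200.3, 217.8 and 169.4 in hair follicle against 135.9 to 211.1 in GFPbright (log2 difference 0.16, SE 0.19, adjusted p = 0.561). Its second probe set went the other way (-0.58, adjusted p = 0.0137), so the 2 probe sets disagree. The other subunit of the same enzyme, Rrm1, read 104.5, 287.3 and 53.9 and was 4.53-fold lower. Orc6 read 208.3, 196.6 and 132.9, within 1.18-fold of GFPbright (adjusted p = 0.525). Orc4, at 190.1, 139.2 and 151.8, had a difference of 0.37 (adjusted p = 0.0652) that became a higher call after quantile normalization (0.48, adjusted p = 0.0124) and without hair follicle replicate 2 (0.47, adjusted p = 0.0398). Orc1 read 17.4, 16.8 and 12 against 18.4 to 21.5 (adjusted p = 0.0728), while its other probe set had a log2 difference of -1.17 (adjusted p = 0.00447).

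Pcna, the clamp, read 2729.4, 2256.1 and 2148.4 in hair follicle and was 1.26-fold lower than in GFPbright (log2 difference -0.34, SE 0.11, adjusted p = 0.0241). That call was lost without hair follicle replicate 2 (adjusted p = 0.0761) or 3 (adjusted p = 0.109), without GFPbright replicate 4 (adjusted p = 0.0647) and with arrays shifted to the same median (-0.15, adjusted p = 0.435). Pole2 read 65.0, 94.0 and 58.7, or 1.95-fold lower, while Pole, its catalytic partner, read 24.6, 65.7 and 6.5, or 8.08-fold lower. Orc2 read 37.8, 57.0 and 36.0, or 1.66-fold lower.

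**Figure D3:**
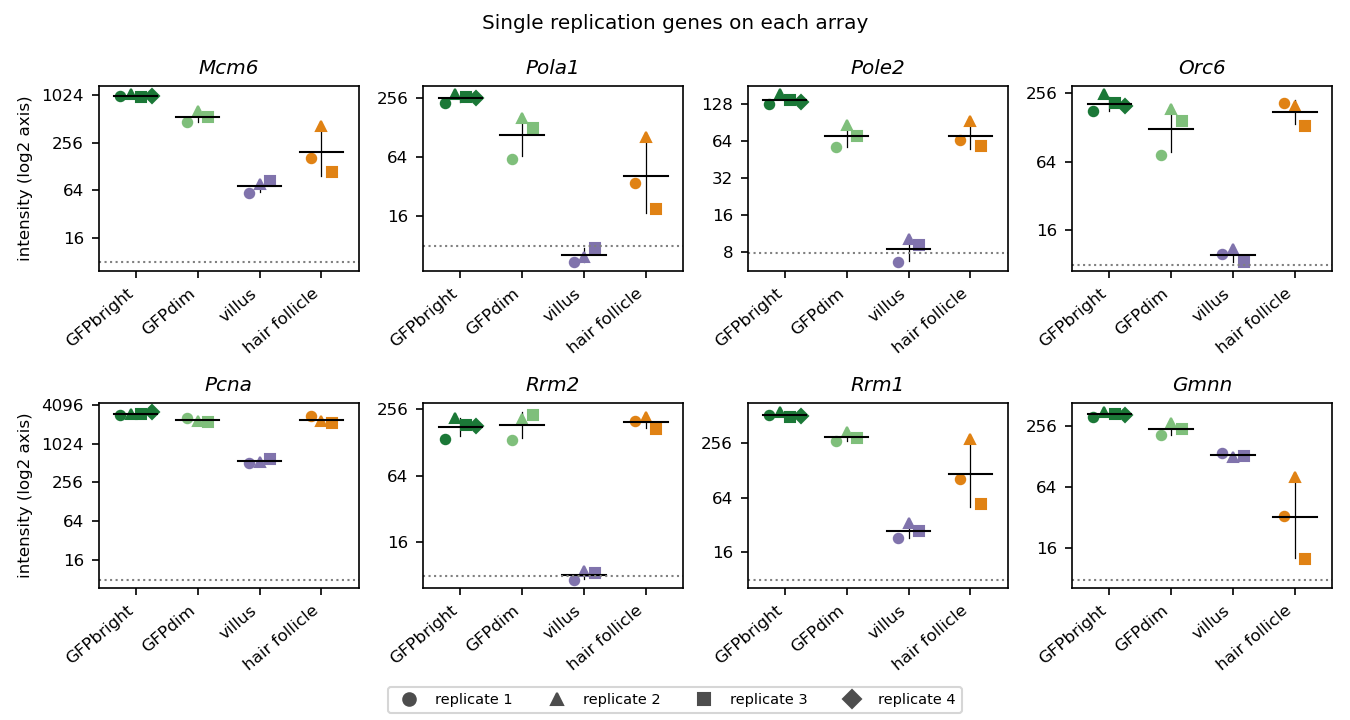
Intensity (log2 axis) of 8 genes on each array, by group and replicate (symbols); horizontal lines are group means and vertical lines 1 SD of the log2 values, and the dotted line is the receptor level. Rrm2, Orc6 and Pcna of hair follicle lie near GFPbright, whereas Gmnn lies below villus at 33.3, 80.9 and 12.6.

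The hair follicle arrays differed widely among themselves in these genes. Replicate 2, whose title shares its code with crypt replicates 2, was the highest of the 3 in 42 of the 46 genes and replicate 3 the lowest in 45. Of 10408 genes above the receptor level 41.8% were highest in replicate 2, 30.6% in replicate 1 and 27.6% in replicate 3, and 39.5% were lowest in replicate 3. The median difference from the GFPbright mean was -2.22, -1.18 and -3.18 for replicates 1, 2 and 3. Mcm2 read 45.1, 152.2 and 17.5, and Tk1 16.1, 79.3 and 5.9. Against the median SD of 0.93 for these genes, that of 11927 genes above the receptor level in any group was 0.23 in hair follicle. Beside this, summed cycling markers were 303.6, 1408.2 and 112.4 in the 3 arrays, melanocyte markers 209.5, 638.0 and 143.1, keratinocyte markers 26632, 22556 and 28242 and stress genes 42614, 36822 and 47797. Without replicate 2, 41 genes were lower than in GFPbright, with a median of -2.76, and without replicate 3, 41, with a median of -1.73.

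**Figure D4:**
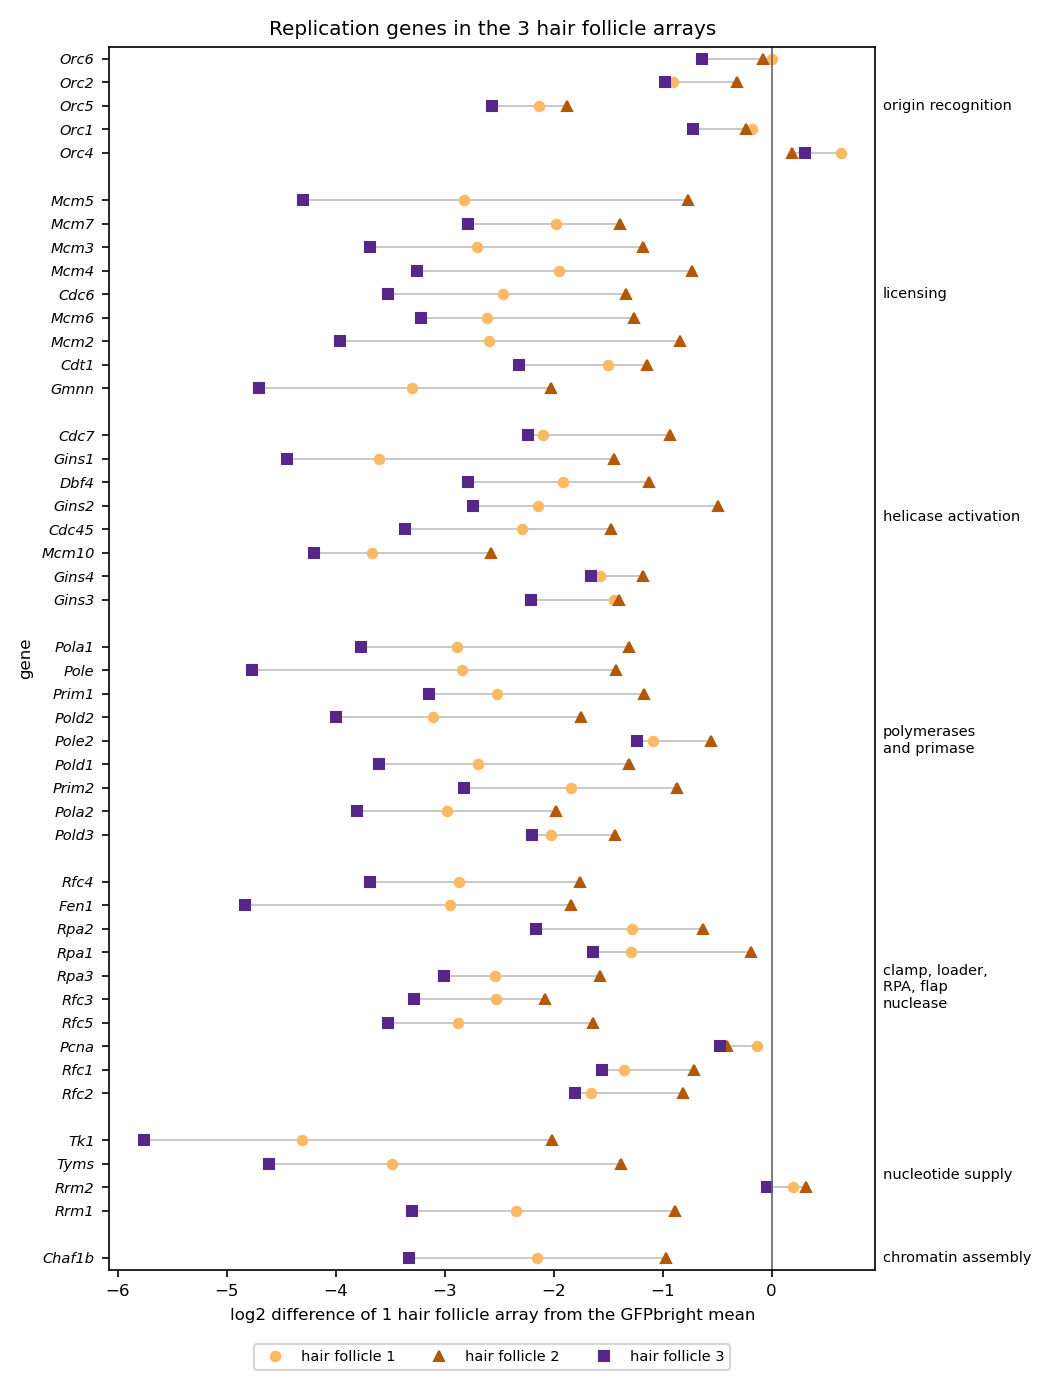
Log2 difference of each of the 3 hair follicle arrays from the GFPbright mean for the 46 genes, by role; a grey line joins the 3 arrays of a gene. The arrays are ordered 3, 1, 2 in most genes, while Orc1, Orc4, Orc6, Pcna and Rrm2 lie nearest to 0.

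Hair follicle and villus, the populations with lower replication genes, were then set against each other. In hair follicle 30 of the 46 genes were higher, 2 were lower, Gmnn and Mcm10, and 14 did not pass, with a median of 1.37 against -0.04 over all genes, of which 26.9% were higher and 27.4% lower. The largest differences, on the brightest probe sets, were those of Rrm2 (4.57, SE 0.20, 23.7-fold), Orc6 (4.19, SE 0.28, 18.3-fold) and Pole2 (3.05, SE 0.21, 8.31-fold). The second probe set of Rrm2 gave 2.75 (SE 0.19), below Orc6 and Pole2. Cdc7 and Pola1 were at least 4.44-fold and 5.10-fold higher, and Pcna was 4.35-fold higher. Cdc6, Cdt1, Pold1 and Tyms were called higher with overlapping arrays. Tyms was not called without any 1 villus array, without hair follicle replicate 1 or 2, or with the mean of a gene's probe sets (0.25, adjusted p = 0.289). With only these groups in the fit Pold1 (adjusted p = 0.0614) and Rfc2 (adjusted p = 0.0656) were not called. Hair follicle replicate 3 was below the villus mean in 17 of the 46 genes. Gmnn was 4.05-fold lower in hair follicle, with 33.3, 80.9 and 12.6 against 124.7 to 139.0 (log2 difference -2.02, SE 0.44, adjusted p = 0.00124). Mcm10 was 1.79-fold lower (adjusted p = 0.0241), with overlapping arrays, and was not called without hair follicle replicate 1 (adjusted p = 0.0797) or 3 (adjusted p = 0.124), without villus replicate 2 (adjusted p = 0.081) or with only these 2 groups in the fit (adjusted p = 0.0902). Without hair follicle replicate 2, 28 genes were higher and 4 lower, with a median of 0.92, the added ones being Pola2 (-1.25, adjusted p = 0.000164) and Rfc5 (-0.69, adjusted p = 0.0234). Without hair follicle replicate 3, 36 were higher and 1 lower, with a median of 1.86, and Mcm2, Cdc45, Gins1, Fen1, Tk1 and Chaf1b were called. Beside these differences, keratinocyte markers were 9 of 9 higher in hair follicle, handling and stress genes 8 of 8 higher, cycling markers 4 of 9 higher and T lymphocyte markers 6 of 6 lower, and their part was not tested.

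Other genes of the pathway, listed apart from the 46, were read the same way. Of all genes 26.3% were lower and 22.6% higher in villus than in GFPbright. The shares were 10.4% and 6.32% in GFPdim, and 29.1% and 19.4% in hair follicle. Of 27 other origin and fork factors 25 were lower in villus than in GFPbright and none higher, and Dscc1 and Top1 did not pass. Among genes above the receptor level in villus the largest differences were those of Pclaf, a partner of PCNA (-5.60, 48.6-fold), Tipin of the fork protection complex (-5.27, 38.5-fold), and Dna2, a nuclease and helicase (-4.73, 26.6-fold). Dtl, which targets Cdt1 for degradation, was below that level and at least 21.8-fold lower. In GFPdim 11 of the 27 were lower and none higher. In hair follicle 24 were lower and 2 higher than in GFPbright. Those higher were Top1, the topoisomerase that relieves twist ahead of the fork (1.59, SE 0.15, adjusted p = 4.24e-07), and Pole4, a small subunit of polymerase epsilon (0.48, SE 0.13, adjusted p = 0.00578), and the lowest were Dna2 (-4.27), Wdhd1 (-3.08) and Clspn (-3.06).

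Among 15 other enzymes of nucleotide metabolism 12 were lower in villus than in GFPbright, 2 higher, and Nme1 did not pass. For this list and the next, the shares of all genes are those given above. Dctd, which makes dUMP, was at least 19.1-fold lower, Dut, which keeps uracil out of DNA, 36.9-fold, and Gart of purine synthesis 35.9-fold. Samhd1, which breaks down deoxynucleotides, rose 11.1-fold (log2 difference 3.47, SE 0.17, adjusted p = 7.32e-10), and its mean was 56.3 in GFPbright, 94.9 in GFPdim, 624.5 in villus and 14.9 in hair follicle. It was already higher in GFPdim (0.75, SE 0.17, adjusted p = 0.00826), the only one of the 15 to be so, with 7 lower. Samhd1 is also made by lymphocytes and other immune cells, whose T cell markers were on the villus arrays, and their part in its level was not tested. Rrm2b, the alternative small subunit of ribonucleotide reductase used outside S phase, rose 1.75-fold in villus (0.80, SE 0.19, adjusted p = 0.00269) and 4.95-fold in hair follicle (2.31, SE 0.19, adjusted p = 1.53e-07). In hair follicle 12 of the 15 were lower and only Rrm2b was higher. All 5 other genes listed for histone and chromatin handling were lower in villus, Uhrf1 most (-5.27), and all 5 in hair follicle, and 3 of 5 in GFPdim.

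**Figure D5:**
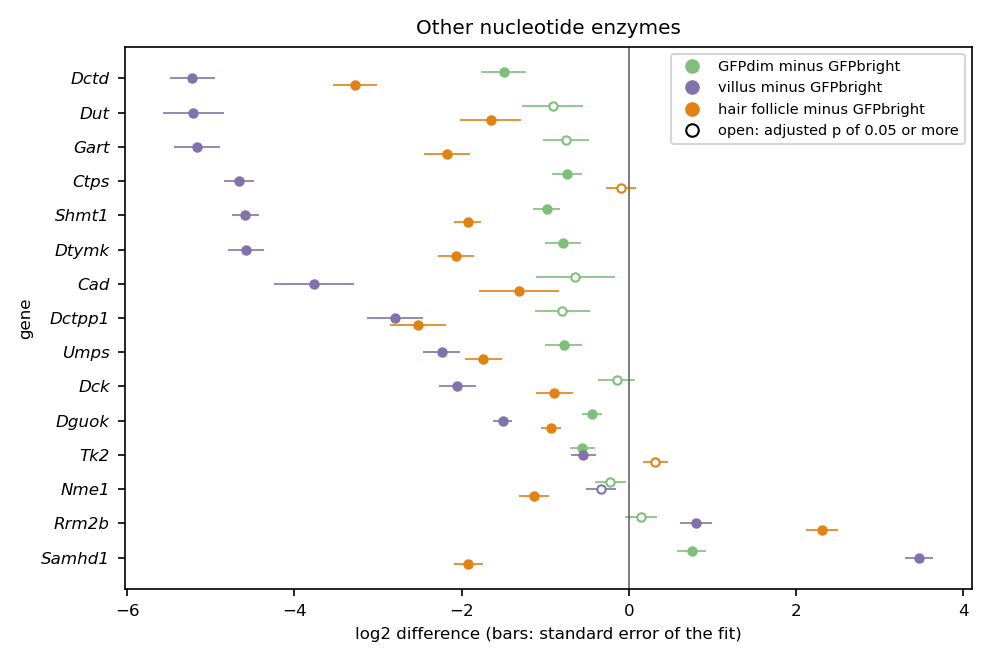
Log2 difference from GFPbright of 15 nucleotide enzymes outside the set, in GFPdim, villus and hair follicle; bars are the standard error of the fit and open points did not pass an adjusted p of 0.05. Samhd1 is at 3.47 in villus and at -1.92 in hair follicle, and Rrm2b lies to the right of 0 in both.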

How the data were processed

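Total RNA of 13 samples was hybridised to Affymetrix HT MG-430 PM arrays. The authors deposited linear intensities per probe set, made by RMA-sketch in Affymetrix Power Tools (version not given in the sources used here), that is after background correction, normalization between arrays and summary of probes. They were taken to log2 without further scaling. Because normalization across arrays assumes similar overall distributions, a change common to most genes would not be seen. Of 45141 probe sets, 28898 name 1 gene in the platform annotation, 551 several and 15692 none in the table used. The brightest single-gene probe set stood for each of 17097 genes, of which 7180 had more than 1. Group means were compared with limma 3.58.1 (R 4.3.3) over all 13 arrays, with Benjamini-Hochberg adjustment over all genes and calls at an adjusted p under 0.05. The fit was tested on simulated data that gave each gene the same spread in all groups. The wider spread of the replication genes among hair follicle arrays was not simulated.

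The members and lists were chosen with earlier results of these data known. Arrays are printed for the genes with the largest and smallest villus difference in each role and for the 8 with the smallest adjusted p in GFPdim. Other genes named were chosen after their values were seen. Same-numbered GFPbright and GFPdim arrays share a sort code in their titles, and their residuals correlated at 0.356, 0.549 and 0.409 over 10254 genes, so the numbers pair the arrays. The labels name pools of 3 mice, and the methods call the arrays of a group biological replicates. The number of arrays limits the precision. Alternatives were 16 added before log2, quantile normalization, arrays shifted to a common median, dim genes left out, the mean of a gene's probe sets or every probe set tested, an intensity trend with robust fit, only the groups compared, the sort as a block, the methods' t-test, and leaving out each array. Promoters were matched by symbol to a RefSeq table (GRCm38.p6).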

Additional observations from a re-analysis of the deposited data

Results flagged for a closer look

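Among the 4 GFPbright arrays, 3 of the 46 genes had 1 array far from the other 3, by the gap to its nearest neighbour over the whole range of log2 values. Mcm5 was low in replicate 3 (177.8 against 227.3 to 229.6, gap over range 0.961), Pole was low in replicate 3 (158.5 against 182.3 to 184.5, 0.921), and Mcm2 was high in replicate 2 (342.1 against 247.5 to 260.9, 0.837). Each is past the 95% critical value of Dixon's test for 4 arrays, and chance alone marks about 1 in 20 genes. Groups of 3 arrays were not examined in this way.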

How the results depend on the processing

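Values of single genes were recomputed 3404 times under the alternatives other than the methods' t-test. Of these, 3283 kept their side of the threshold, 57 lost and 64 gained a call. In 0 did a value called in either fit change sign. No sign could change with dim genes left out, the intensity trend, every probe set tested or only the groups compared. Those settings leave the difference of a gene's brightest probe set as it was. Villus minus GFPbright gave 46 lower genes in every leave-one-out fit, with medians of -3.74 to -3.61. The size of its median was -2.54 with 16 added before log2, -2.80 with the mean of a gene's probe sets and -3.48 with arrays shifted to the same median, which moved the median of all genes to 0.24. For villus minus GFPdim the medians were -1.88 with 16 added and -2.19 with the mean of probe sets. Lower calls in GFPdim minus GFPbright were 17 with 16 added, 37 with only the groups compared, 23 and 30 by the methods' t-test with and without Benjamini-Hochberg adjustment, and 5 to 12 with 1 array left out. With the sort as a replicate block they were 9, with a median of -0.76, and no calls changed beyond those of Orc6, Mcm7, Gins3 and Rpa2. In hair follicle minus GFPbright lower calls were 37 and 29 by the methods' t-test with and without adjustment, against 42 in the main fit. They were 41 to 42 with 1 array left out. In that comparison 1 gene, Orc4, was higher after quantile normalization and with arrays shifted to the same median. With 1 array left out 0 to 1 were higher. At an unadjusted p under 0.05 in limma, 0 genes were higher in GFPdim or villus against GFPbright and 1, Orc4, in hair follicle, and the methods' t-test gave 0 higher in each. In hair follicle minus villus lower calls were 1 with 16 added, 1 with only the groups compared, 0 by the methods' t-test with or without adjustment, and 1 to 4 with 1 array left out, and higher calls were 13 and 8 by the adjusted and unadjusted t-test. The t-test and the fit of 2 groups take the spread from the 2 groups compared alone, while the main fit pools it over all 4. The cause of these changes was not tested. Genes near the receptor level in villus, 6 of them below it, have differences that are limited by signal over background.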
